A study of Homo sapiens with 6 samples.

Results

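Many human transfer RNA (tRNA) genes lie in clusters, and 7 such regions were examined here for SMAD2 binding. The 7 windows were set by position on hg19 alone, although with earlier results of these data known, and cover 1713 kb in all. They held 283 of the 79310 summits of the 4 libraries, a summit being the single base of highest signal of a peak. Summits no more than 250 bp from their neighbour, in any library, made up 1 site, which gave 126 sites in the windows out of 36648 in the genome.

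The cells were Hs578T, an established human line of triple-negative breast cancer, a subtype without oestrogen and progesterone receptors and without HER2 amplification. All cells were grown in serum with added insulin and were given 50 ng/ml activin A for 1.5 h. The activin group had nothing further (2 libraries), and the palbociclib group also had 1 µM palbociclib, an inhibitor of the kinases CDK4 and CDK6, for 24 h (2 libraries). SMAD2-bound DNA was isolated with an antibody and sequenced (ChIP-seq), and the design asks how its binding after activin differs when CDK4 and CDK6 are inhibited. No library without activin was analysed here, and nothing states that replicates were separate cultures; their spread may therefore be technical.

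tRNAs carry amino acids to the ribosome, and their short genes are transcribed by RNA polymerase III. The promoter is inside the gene: TFIIIC binds the internal A and B boxes and brings in TFIIIB, which recruits the polymerase. SMAD2 carries the signal of activin and TGF-β receptors: once they phosphorylate it, it joins SMAD4, enters the nucleus and helps to regulate target genes. RB, the protein that CDK4 and CDK6 phosphorylate, is known to bind TFIIIB and to restrain RNA polymerase III.

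The windows are called here by chromosome, with left and right where a chromosome has a pair. The chr6 left window runs from 26290000 to 26850000 and the chr6 right window from 28400000 to 29000000. The chr1 window runs from 161360000 to 161600000, and the chr14 window from 21075000 to 21155000. On chromosome 17 the left window runs from 8020000 to 8068000 and the right window from 8085000 to 8130000. The chr5 window runs from 180520000 to 180660000.

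The gene order around the windows was read from the RefSeq gene table of GRCh38.p14, a different build, so it describes neighbourhoods and not the exact windows. The 7 stretches hold 171 of the 443 nuclear tRNA genes of that table. Between H4C8 and H2BC11, 2 histone genes on chromosome 6, there are 47 tRNA genes, 12 of them for alanine, among BTN (butyrophilin) genes, HMGN4, ABT1 and ZNF322. Between ZSCAN23 and ZNF311 there are 43 tRNA genes, 15 for alanine and 6 for phenylalanine, with GPX6, GPX5, SCAND3 and TRIM27. The chromosome 1 stretch, between CFAP126 and FCGR3B, has 32 tRNA genes, of which 12 are for glycine, 7 for leucine, 5 for aspartate and 5 for glutamate. Its protein-coding genes are FCGR2A, HSPA6 and FCGR3A. The stretches of chromosome 17 have 7 tRNA genes next to HES7 and PER1, a core gene of the circadian clock, and 11 next to BORCS6, AURKB, a mitotic kinase, and CTC1. Those of chromosomes 14 and 5 have 14 and 17 tRNA genes, with 5 for tyrosine and 8 for valine. The chromosome 14 stretch also holds OR6S1, and that of chromosome 5 holds OR2V1, OR2V2, TRIM7 and TRIM41. Every stretch thus also holds or borders protein-coding genes with promoters of their own. Which SMAD2 sites lie at a tRNA gene and which at such a promoter was not analysed here, so the sites below are those of tRNA cluster windows and are not shown to be sites of tRNA genes.

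SMAD2 summits were found in all 7 windows in every library. Below, where values are given for the activin or the palbociclib libraries, replicate 1 comes before replicate 2. The windows held 92 and 19 summits in the activin libraries, and 109 and 63 in the palbociclib libraries. The whole lists held 25553, 7241, 27290 and 19226 summits in the same order, so activin replicate 2 had the shortest list as well as the fewest summits in the windows. Read numbers were not at hand, and list length is not shown to measure depth.

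The windows differed widely in how densely they were bound. The chr17 left and right windows, with 16 and 17 sites, held 33.3 and 37.8 sites per 100 kb. The chr5 window held 9.29 sites per 100 kb (13 sites), the chr6 right window 7.0 (42 sites), the chr14 window 6.25 (5 sites) and the chr6 left window 4.64 (26 sites). The chr1 window was the sparsest of the 7, with 2.92 sites per 100 kb (7 sites). Its longest stretch with no summit in any library ran 108.8 kb, from 161391863 to 161500647. The tRNA genes of the chromosome 1 stretch come in near-identical tandem copies, and no source used here says how reads that match several copies were placed. The effect of such copies on the gaps was not tested. Gaps of 94.7 kb in the chr6 right window (28459662 to 28554315), 91.7 kb in the chr6 left window (26758263 to its end) and 67.5 kb in the chr5 window (its start to 180587511) were also free of summits.

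**Figure D1:**
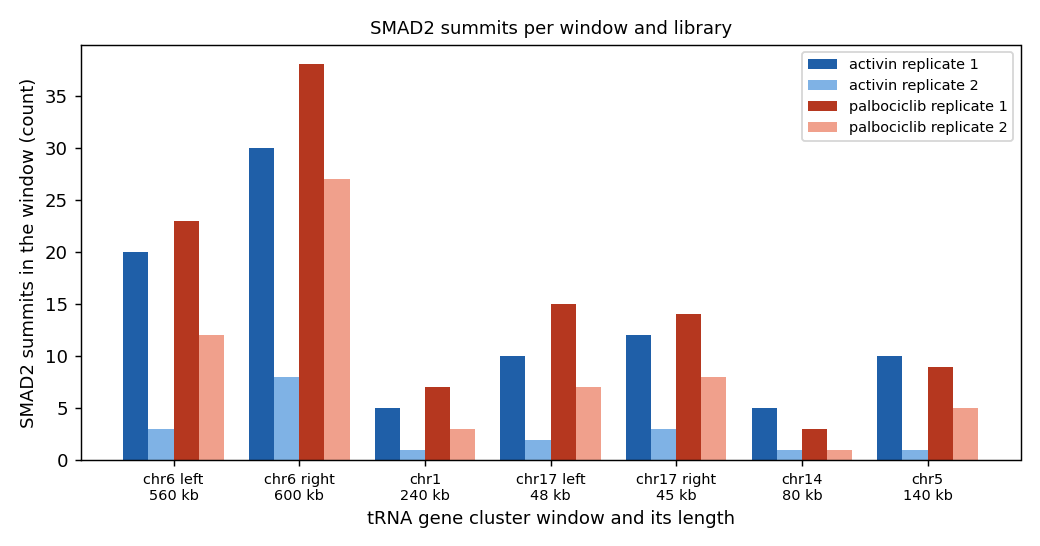
Number of SMAD2 summits (vertical axis, count) in each of the 7 windows, with 1 bar per library and the window length under each name. Activin replicate 2 (light blue) had the fewest summits in 6 windows and shared the lowest count with palbociclib replicate 2 in the chr14 window.

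**Figure D2:**
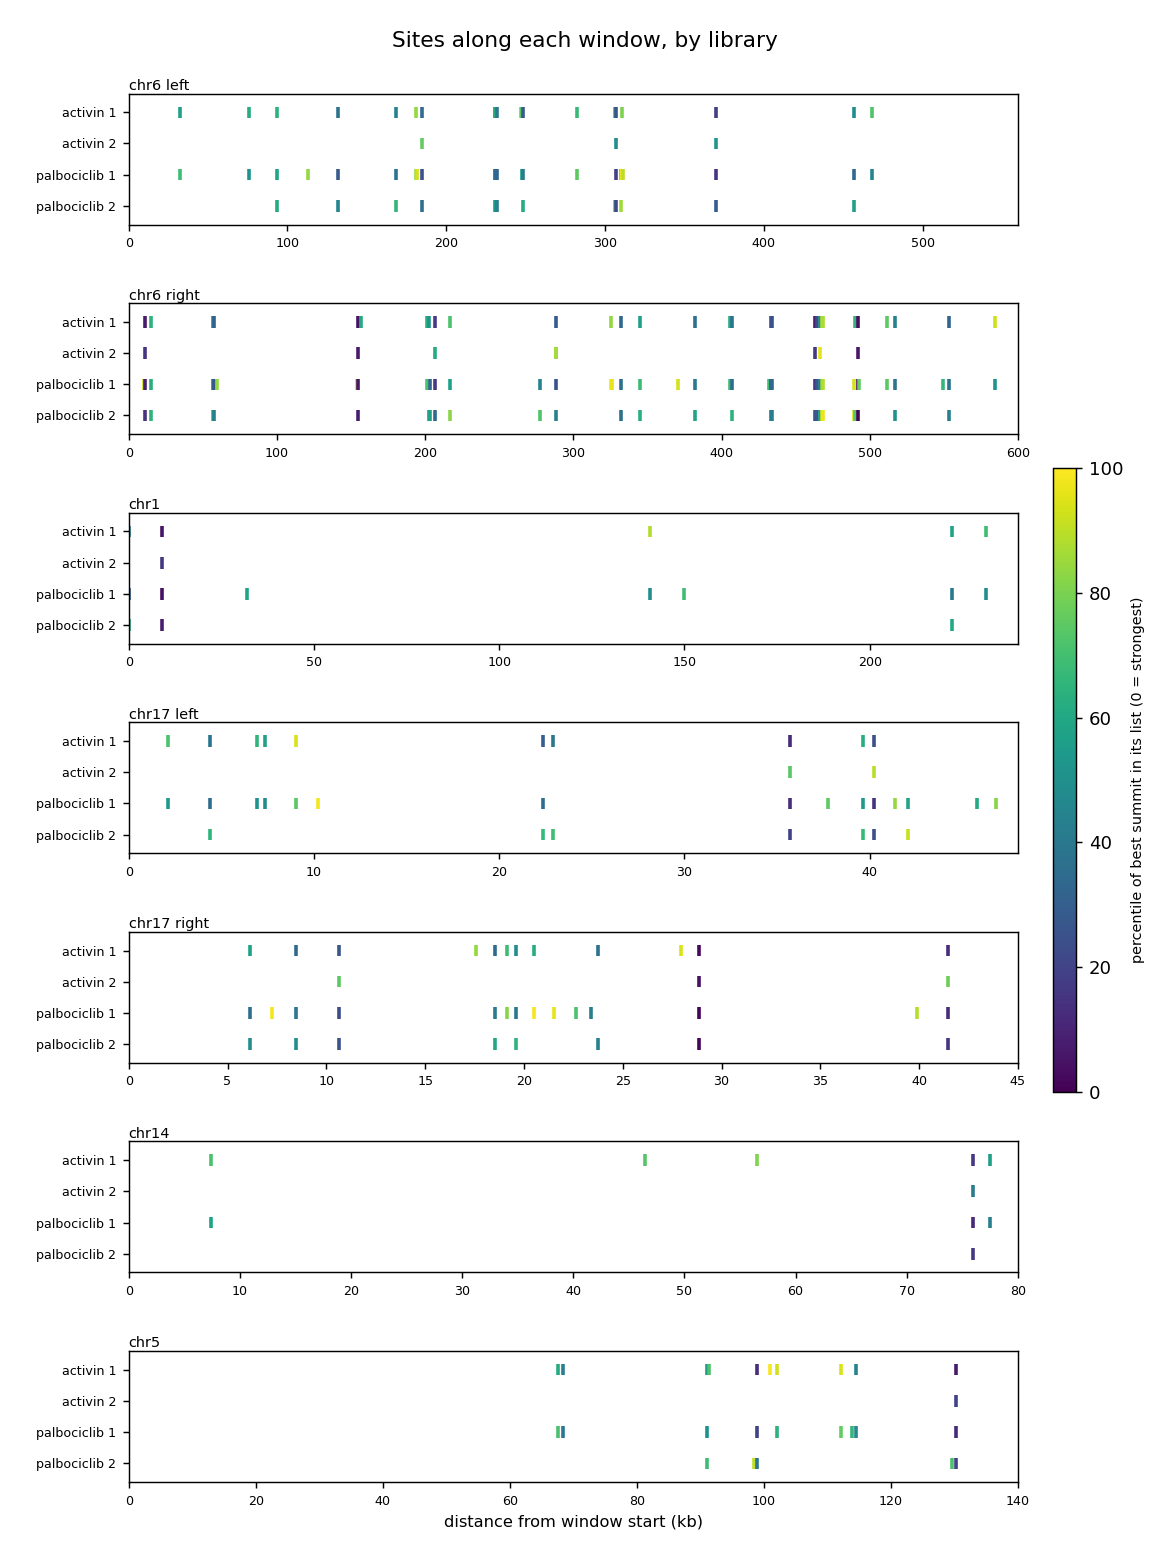
Position of every site along its window (horizontal axis, kb from the window start) in each library (rows), coloured by the percentile of its best summit in the whole list, where 0 is the strongest. Each panel has its own length scale, and the chr1 window is empty in all 4 libraries over a stretch of 108.8 kb.

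Per length, the windows were bound more densely than the genome as a whole. Summits in the windows numbered 53.7 per Mb in activin replicate 1, where the span of the genome between the first and last summits of each chromosome had 8.72 per Mb. This was 6.16 times the genome's density, and the ratio was 4.49 in the other activin library and 6.83 and 5.61 in the palbociclib libraries. The chr17 windows had the highest ratios, from 16.9 to 33.6 over both windows and all libraries. The chr1 window had the lowest ratio of the 7 in each library (jointly with chr14 in palbociclib replicate 2), from 1.69 to 3.13.

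In the whole lists, the windows did not stand out against their own surroundings in the same way in all libraries. Flanks of the length of the window on each side, leaving out bases of another window, had 31.9, 17.01, 31.6 and 25.7 summits per Mb in activin replicates 1 and 2 and palbociclib replicates 1 and 2. The log2 ratio of window to flank density was 0.75 and -0.62 in the activin libraries, and 1.01 and 0.52 in the palbociclib libraries. Its mean of 0.41 ± 0.72 (SD, n = 4) was smaller than the spread between libraries, and the short list had the opposite sign to the other 3. In lists of equal length, the 7241 best-scored summits of each library, all 4 ratios were negative, from -0.62 to -0.44. Both chr17 windows and the chr14 window were denser than their flanks in 4 of 4 libraries, and the chr1 window was less dense than its flanks in 4 of 4. Some of these comparisons rest on very few summits. For activin replicate 2, the chr17 left and right windows held 2 and 3 summits, the same numbers as their longer flanks. The gap between the chr17 windows counts as flank of both, so their results are not independent. The chr14 flanks had 0 summits in every library, and each replicate 2 library had only 1 summit in the chr14 window. These lists hold called peaks, so a count of 0 means that none passed the authors' threshold.

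In the 3 longer lists the windows held a smaller share of the strongest summits than of the list as a whole. The score of a peak is the authors' value on a −log10 scale, and it was used to rank summits within a list, with percentile 0 for the strongest. The median percentile of the window summits was 53.9 and 53.7 in the activin libraries, and 50.7 and 55.5 in the palbociclib libraries. The best 25% of the list held 16 of 92 window summits in activin replicate 1, or 17.4% (Wilson 95% interval 11.0 to 26.4), where 25% of all its summits are there by definition. It held 16 of 109 in palbociclib replicate 1, or 14.7% (9.24 to 22.5, background 25%), and 11 of 63 in palbociclib replicate 2, or 17.5% (10.0 to 28.6, background 24.9%). In the short list of activin replicate 2 it held 7 of 19, or 36.8% (19.1 to 59.0, background 25%). The interval of palbociclib replicate 1 excludes 25%, and those of the other 3 libraries include it. The weakest 25% of the list held 17.4% and 31.6% of the window summits in the activin libraries, and 26.6% and 12.7% in the palbociclib libraries. Wilson intervals here and below cover counting error only.

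The flanks carried stronger summits than the windows in all 4 libraries. Which genes the flanks hold was not analysed here, so they are not shown to be a neutral background. Of the flank summits, 43.9% and 47.4% in the activin libraries, and 49.1% and 47.7% in the palbociclib libraries, were among the best 25% of their list. The median percentile of the flank summits was 29.2, 29.1, 26.9 and 28.0 in the same order. It was thus better than that of the window summits in each library, by more than the range of the windows' medians over libraries. The gap between the chr17 windows, which is part of these flanks, held a summit at rank 2 and 15 in the activin libraries and at rank 6 and 5 in the palbociclib libraries.

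Read down each ranked list, the libraries gave similar counts at most depths. Among the 1000 best summits, 2 lay in the windows in activin replicate 1 and in each palbociclib library, and 3 in activin replicate 2. Among the 2500 best, the windows held 7 summits in each activin library and 5 and 4 in the palbociclib libraries. The counts of the groups did not overlap there, but the Wilson intervals of the shares did. These ran from 0.136% to 0.577% in each activin library, and from 0.0855% to 0.467% and 0.0622% to 0.411% in the palbociclib libraries. At 1000, 5000 and 7241 summits the groups had a count in common. Among the 5000 best, the windows held 13, 11, 13 and 13 summits in activin replicates 1 and 2 and palbociclib replicates 1 and 2. Among the 7241 best they held 20, 19, 19 and 18, which are 0.276%, 0.262%, 0.262% and 0.249% of those summits. At 15000 summits the 3 longer lists had reached 53, 59 and 56. At 7241 summits, where its list ends, activin replicate 2 thus had about as many window summits as the other libraries.

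**Figure D3:**
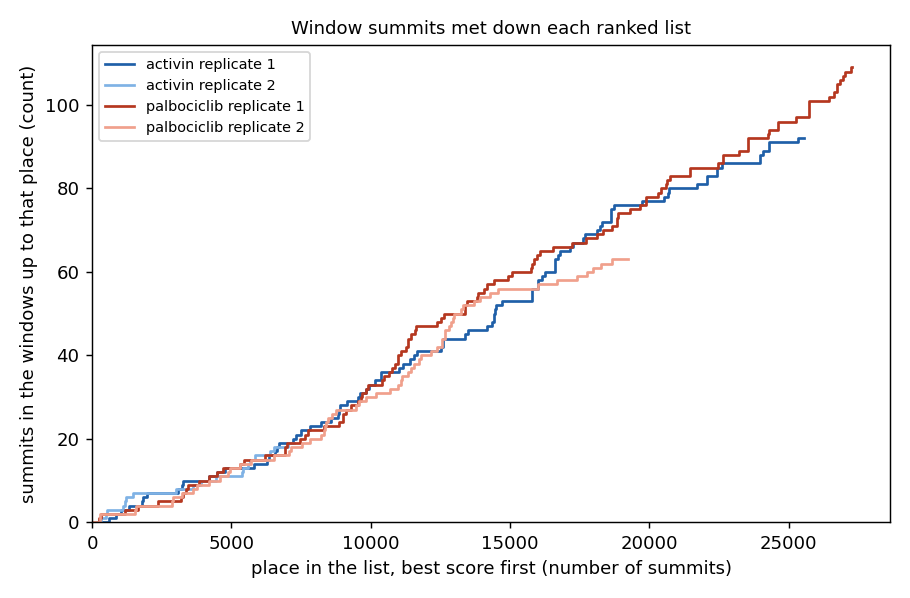
Number of summits in the windows (vertical axis, cumulative count) against the place in the list, best score first (horizontal axis, number of summits), with 1 line per library. At 2500 summits the activin lines stand at 7 and the palbociclib lines at 5 and 4, with Wilson intervals of the shares that overlap between groups. At 7241 summits, where activin replicate 2 ends with 19, the lines range from 18 to 20.

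Over whole lists, the windows held 0.311% ± 0.069 of the summits with activin and 0.364% ± 0.0507 with palbociclib as well (SD, n = 2 each). The share was 0.36% (Wilson 95% interval 0.294 to 0.441) in activin replicate 1 and 0.262% (0.168 to 0.41) in activin replicate 2. It was 0.399% (0.331 to 0.481) in palbociclib replicate 1 and 0.328% (0.256 to 0.419) in palbociclib replicate 2. The groups overlapped, since activin replicate 1 lay between the palbociclib libraries. The log2 ratio of palbociclib to activin was 0.24, and an exact two-sided permutation test gave p = 0.667, where 2 against 2 libraries cannot go below 0.333. In lists of equal length the log2 ratio was -0.08. With the whole lists it was 0.0069 without activin replicate 2 and 0.46 without activin replicate 1, and it was 0.0924 and 0.38 without palbociclib replicates 1 and 2. The value thus rests on which libraries enter it.

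Window sites were found in a single library less often, and in exactly 2 libraries more often, than sites over the genome. Of the 126 window sites, 17 were found in all 4 libraries, or 13.5% (Wilson 95% interval 8.6 to 20.6), against 15.9% of all sites. Another 33 sites, or 26.2%, were missing only in activin replicate 2, against 22.5% of all sites. The replicate 1 libraries, which had the 2 longest lists, alone shared 27 sites, or 21.4%, against 12.7% of all sites. Sites in exactly 2 libraries numbered 38, or 30.2% (22.8 to 38.7), against 20.9% of all sites. A single library held 37 sites, or 29.4% (22.1 to 37.8), against 39.7% of all sites. Both of these intervals exclude the value over all sites, and that for 4 libraries includes it. Neighbouring sites are not independent. Of the 37 sites in a single library, 26 were in the longest list, palbociclib replicate 1. They made up 20.6% of window sites, against 18.9% of all sites. Activin replicates 1 and 2 alone held 9 and 0 (7.14% and 0%, against 13.4% and 1.94% of all sites). Palbociclib replicate 2 alone held 2 (1.59%, against 5.43% of all sites). The lower share in a single library thus did not hold for palbociclib replicate 1. Without activin replicate 2, 50 window sites were common to the other 3 libraries, or 39.7%, against 39.1% of all sites of those libraries.

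Every one of the 19 window sites of activin replicate 2 was also found in another library, where 90.2% of all its sites were. The share was 90.2% in activin replicate 1 (80.6% over all its sites). In the palbociclib libraries it was 76.1% and 96.8% (74.5% and 89.6% over all their sites). At the 17 common sites the 4 summits lay within a median of 48 bp, from 7 to 203 bp, and over all common sites with 1 summit per library the median was 46 bp.

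The strongest window site lay in the chr17 right window, from 8113841 to 8113879. Its score was 135.4 and 30.6 in the activin libraries, and 290.4 and 142.3 in the palbociclib libraries. It ranked 590, 302, 246 and 277 in those lists, and 246 was the best rank of any window site in any list. The next site, in the chr6 right window from 28891714 to 28891895, scored 122.6 and 26.0 in the activin libraries and 261.7 and 142.3 in the palbociclib libraries. It ranked 852, 481, 329 and 277. Scores grow with depth, so their size is not compared between libraries.

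Percentiles over the 5829 sites common to all libraries put every library on 1 scale and were used to compare libraries site by site. Which sites are common still depends on the lists, chiefly on the short one of activin replicate 2. By this measure the 17 window sites spread from the top of the scale to its bottom. The first site above stood at 9.86 and 5.1 in activin replicates 1 and 2 and at 4.12 and 4.61 in palbociclib replicates 1 and 2. The weakest, in the chr6 right window from 28866700 to 28866889, stood between 97.8 and 99.3 in all 4 libraries. The median percentile of the 17 sites was 51.1 and 55.7 in the activin libraries and 53.8 and 58.1 in the palbociclib libraries, where the median over all common sites is close to 50 by construction.

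The best common site of each other window was placed as follows. In the chr1 window the site from 161369052 to 161369068 stood at 21.8 and 19.2 in the activin libraries and at 19.9 and 25.2 in the palbociclib libraries. It is the only chr1 site found in all 4 libraries, and its groups overlapped. In the chr14 window the site from 21150891 to 21151085 stood at 64.8 and 47.8 with activin and at 50.3 and 50.7 with palbociclib. The chr17 left window had its best site from 8055671 to 8055712, at 49.1 and 79.5 with activin and 53.8 and 58.1 with palbociclib. At these last 2 sites the activin replicates bracketed both palbociclib libraries. The chr6 left window had its best site from 26660035 to 26660154, at 71.5 and 59.9 with activin and 63.8 and 78.9 with palbociclib. All 3 common sites of the chr6 left window lay in the weaker part of the scale in every library, at 55.7 or above.

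At 8 of the 17 common sites the treatment groups did not overlap. At 3 sites (17.6%) both palbociclib libraries ranked stronger than both activin libraries, against 26.2% of all common sites. At 5 sites (29.4%) both ranked weaker, against 28.2% of all common sites. The counts of members thus lay near or below the background in both directions. An exact permutation test of 2 against 2 libraries cannot give p below 0.333, so no p is given for single sites.

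The largest move was at the chr6 right site from 28863368 to 28863375. It stood at 32.2 and 19.7 in activin replicates 1 and 2 and at 67.0 and 71.6 in palbociclib replicates 1 and 2. The group means were 25.9 ± 8.84 and 69.3 ± 3.27 (SD, n = 2 each), 43.4 points weaker with palbociclib. On this scale the groups did not overlap, and their difference was larger than either replicate spread. Among sites common to the libraries other than activin replicate 2, the site stood at 13.5 in activin replicate 1. It stood there at 30.6 and 33.3 in palbociclib replicates 1 and 2, 18.4 points weaker in the mean, so the size depends on the set of common sites. The next site of the window, from 28864156 to 28864223, was absent from activin replicate 2 and ranked 5807 in activin replicate 1 and 7632 and 5270 in the palbociclib libraries.

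The chr5 site from 180650313 to 180650352 stood at 29.1 and 23.5 with activin and at 51.4 and 56.4 with palbociclib, 27.6 points weaker in the mean. It is the only chr5 site found in all 4 libraries. The chr6 right site from 28411194 to 28411210 moved from 24.0 ± 8.3 to 42.2 ± 5.33 (SD, n = 2 each). The chr6 right site from 28554978 to 28555026 moved from 13.0 ± 6.02 to 26.6 ± 1.06, and the one from 28606740 to 28606834 from 67.6 ± 0.413 to 77.3 ± 11.1. At the last of these the lowest palbociclib value, 69.5, was close to the highest activin value, 67.9, so the separation was small beside the spread of the palbociclib replicates. Of the 5 sites that ranked weaker with palbociclib, 4 lay in the chr6 right window, which held 6 of the 17 common window sites.

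Sites that ranked stronger with palbociclib included the 2 strongest window sites. The largest such move was in the chr17 left window, from 8060204 to 8060237, at 85.5 and 92.6 with activin and at 59.4 and 67.7 with palbociclib. The group means were 89.1 ± 5.08 and 63.6 ± 5.85 (SD, n = 2 each). The chr6 right site from 28891714 to 28891895 moved from 11.1 ± 4.48 to 5.09 ± 0.679. The strongest site, in the chr17 right window, moved from 7.48 ± 3.37 to 4.36 ± 0.346, and there activin replicate 2, at 5.1, was within 1 point of both palbociclib libraries.

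**Figure D4:**
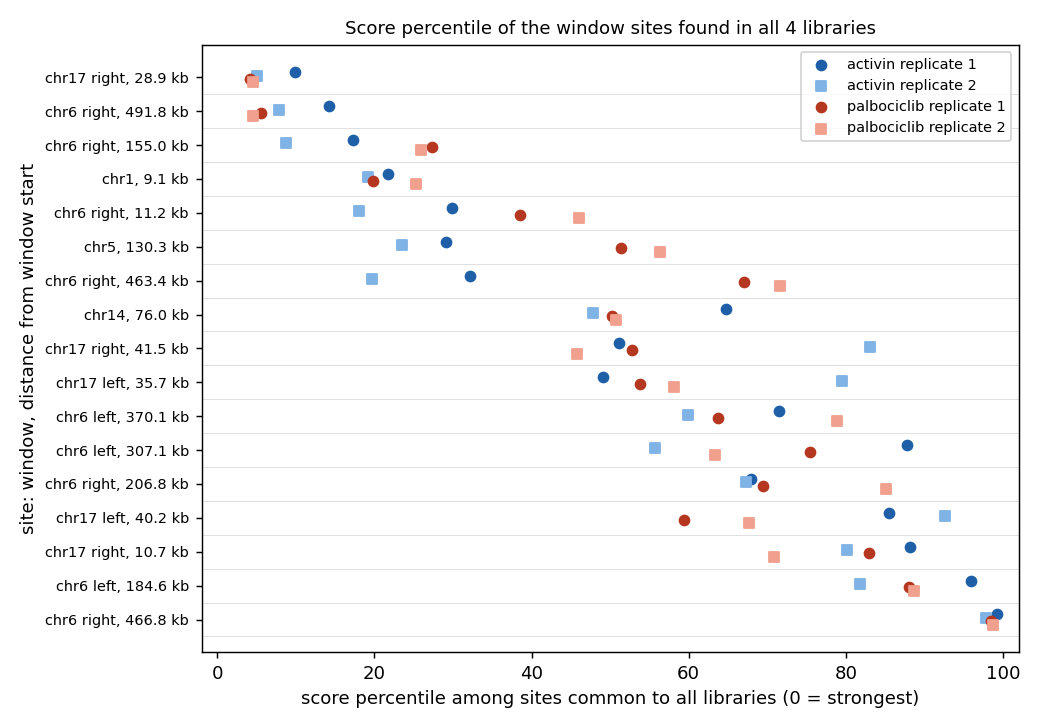
Score percentile among common sites (horizontal axis, 0 is the strongest) of the 17 window sites found in all 4 libraries, with 1 point per library and sites ordered by mean rank in the whole lists. The chr6 right site at 463.4 kb has its activin points at 32.2 and 19.7 and its palbociclib points at 67.0 and 71.6.

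At the remaining 9 common sites the groups overlapped. The widest gap between activin replicates was at the chr6 left site from 26596993 to 26597196, at 87.7 and 55.7 in activin replicates 1 and 2. A nearly equal gap was at the chr17 right site from 8126461 to 8126503, at 51.1 and 83.0 with activin and at 52.7 and 45.8 with palbociclib. The chr17 right site from 8095561 to 8095749 stood at 88.2 and 80.1 with activin and at 82.9 and 70.8 with palbociclib. The chr6 left site from 26474541 to 26474597 stood between 81.8 and 95.9 in all libraries.

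Over the 17 sites the mean change, palbociclib minus activin, was 2.57 percentile points towards weaker and the median change was -0.56, towards stronger, so the 2 measures differed in sign. The change was towards weaker at 8 sites and towards stronger at 9. The mean rested almost wholly on 1 site, in the chr6 right window from 28863368 to 28863375, which changed by 43.4 points. Leaving out 1 library moved the mean to 4.47 (without activin replicate 1), 1.37 (without activin replicate 2), 3.52 (without palbociclib replicate 1) or 1.24 (without palbociclib replicate 2), and joining summits within 100 bp gave 4.51. The mean was -0.42 within replicate 1 and 5.55 within replicate 2. The 9 sites of the chr6 windows changed by 9.08 points in the mean and the other 8 sites by -4.77. Their medians were 5.61 and -6.54. The chr6 value includes the site with 43.4 points, and the other value includes the chr5 site from 180650313 to 180650352, with 27.6. The common sites of the chr6 left window changed by -0.56, -2.31 and 5.61. Over all 5829 common sites the mean is 0 by construction and the median was 0.57.

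Without activin replicate 2, more window sites could be ranked. Over the 50 window sites in the other 3 libraries, both palbociclib libraries ranked stronger than activin replicate 1 at 14 (28.0%, against 36.9% of the 14053 such sites of the genome). Both ranked weaker at 19 (38.0%, against 38.1%). With 1 activin library this comparison has no replicate check in that group. The chr6 left site from 26538598 to 26538652 had the largest drop, from percentile 47.6 in activin replicate 1 to 74.3 and 74.1 in palbociclib replicates 1 and 2. A chr17 left site from 8042326 to 8042441 went from 49.5 to 63.7 and 79.6, and the chr5 site from 180618820 to 180618932 from 22.2 to 37.1 and 49.3. The largest gain was at the chr17 right site from 8091087 to 8091226, from 83.5 to 66.1 and 61.2. All 4 of these sites were absent from activin replicate 2.

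Sites found in both libraries of 1 treatment alone were about as frequent as over the genome for palbociclib, and none was found for activin. In both palbociclib libraries and neither activin library there were 5 window sites (3.97%, against 3.56% of all sites). In both activin libraries and neither palbociclib library there were 0, against 0.344% of all sites. The best palbociclib-only site, in the chr6 right window from 28603148 to 28603204, ranked 8854 and 11083 in palbociclib replicates 1 and 2, and a summit of activin replicate 1 lay 530 bp away. The next, from 28677851 to 28677864 in the same window, ranked 12353 and 13833, and its nearest activin summit was 10406 bp away. The other 3 lay in the chr17 left window from 8062029 to 8062057, in the chr6 left window from 26599880 to 26599918 and in the chr6 right window from 28889361 to 28889436. An activin summit lay within 1795 bp of each of these 3. Fewer lists decide when a library is left out: there were then 38 palbociclib-only sites (without activin replicate 1), 31 (without palbociclib replicate 2) or 8 (without palbociclib replicate 1). Without activin replicate 2 there were 9 activin-only sites. Shares over all sites are not given here for these settings, so these counts are not read as a result about the windows.

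Window sites tended to lie near each other, as SMAD2 sites did elsewhere. Another site lay within 2000 bp of 88 of the 126 sites, or 69.8% (Wilson 95% interval 61.3 to 77.2), against 76.5% of all sites. Runs of 3 or more sites less than 2000 bp apart numbered 13 and held 51 sites. The share of all sites in such runs is not given here, so the runs are not shown to be particular to the windows. The longest run, of 9 sites, lay in the chr17 right window from 8102587 to 8108742, and none of its sites was found in all 4 libraries or in activin replicate 2. Its best scores were 28.0 in activin replicate 1, and 25.01 and 19.9 in the palbociclib libraries. A run of 5 sites in the chr17 left window, from 8057728 to 8062057, included the site at 8060204 described above. A run of 4 sites in the chr6 right window, from 28889361 to 28892577, surrounded the strong site at 28891714.

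A close pair in the chr6 right window was split between libraries. Summits of activin replicate 2 and palbociclib replicate 2 lay from 28688267 to 28688270, and those of activin replicate 1, activin replicate 2 and palbociclib replicate 1 from 28688650 to 28688665. Activin replicate 2 had both summits. The split followed the replicate number apart from the second summit of activin replicate 2.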

How the data were processed

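SMAD2 ChIP-seq lists of 4 libraries were analysed, without the 2 inputs. The submitters' processing notes name Bowtie 1.1.0 (aligner), Picard and MACS2 2.0.9 (peak caller) on hg19; their settings are not stated there. Per the labels, both replicates of a treatment had the same 1 input as control for peak calling, so input and treatment cannot be told apart. The deposited score is on a −log10 scale. Its minima of 1.31 to 1.4 lie just above 1.3, −log10 of 0.05, and no source says whether it comes from p or q values. Read depth is unknown.

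Computed here: summits were joined within 250 bp, a site's score was its best summit's, and coordinates are 1-based. Ranks gave equal scores their best rank; percentiles used mean ranks. Intervals are Wilson 95%. The functions were tested on simulated lists. Named sites were the 15 best common window sites by mean rank, the best of each window, the 5 largest non-overlapping changes in each direction and the 5 best sites of 1 treatment; others were chosen after their values were seen. The windows and comparisons were chosen with earlier results of these data known. Alternatives covered left-out libraries, equal-length lists, joining distance, a score minimum, the chromosome 6 windows, flank length and a replicate block. Scripts ran under Python 3.11.15 with pandas 2.3.3, numpy 2.4.6, scipy 1.17.1 and, for figures, matplotlib 3.10.9.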

Additional observations from a re-analysis of the deposited data

How the results depend on the processing

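In lists of equal length, the log2 ratio of the shares of summits in the windows was -0.076 and the mean log2 ratio of window to flank density was -0.54, both of opposite sign to the whole lists. There the percentile change of the common window sites was 5.18 and palbociclib-only sites numbered 0. Without the chromosome 6 windows the percentile change was -4.77. With a score of at least 5, palbociclib-only sites numbered 2. Leaving out each library in turn gave 5 to 38 palbociclib-only sites, 0 to 9 activin-only sites and 17 to 50 sites in all remaining libraries. Shares over all sites are not given here for these palbociclib-only and activin-only counts. With flanks of 0.5 of the window length the log2 density ratio was 0.0238, against 0.41. A joining distance of 100 or 500 bp gave 13 and 18 sites in all 4 libraries.

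With the replicate number as a block, the log2 ratio of the shares was 0.24 (exact two-sided sign-flip permutation test, p = 0.5, the smallest it can give with 2 pairs), and the percentile change was 2.57. The labels do not say what the numbers share. Deviations of same-numbered libraries from their group means correlated across the 5829 common sites at r = 0.264, which are not independent. Unknown read depth and the short list of activin replicate 2 limit all counts of absent sites.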
